A study of Mus musculus with 4 samples.

Results

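The genes of respiratory complex I, the NADH dehydrogenase of the inner mitochondrial membrane, were examined for CTCF at their promoters in mouse hippocampus. Members were the protein-coding genes whose symbols start with Nduf in the GENCODE M21 annotation of mm10. There were 46 such genes among 21755 protein-coding genes. CTCF-bound DNA was recovered with an antibody from the hippocampus of adult male B6CASTF1/J mice, hybrids of the strains C57BL/6J and CAST/EiJ, at 2 months of age, and was sequenced (ChIP-seq). There were 2 biological replicates, each with 2 of the 4 libraries as technical repeats, and each replicate was a pool of 7 tissue biosamples. No treated or mutant group was included. The same donor entry is given for the pools, and nothing states that different mice went into each, while the technical libraries of a replicate share 1 value per peak. The cross carries 2 parental genomes while peaks and sequences refer to the C57BL/6J reference, and alleles were not separated here.

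Complex I passes electrons from NADH to ubiquinone and pumps protons across the inner membrane. It is assembled from core subunits, which carry the flavin, the iron-sulfur clusters and the quinone site, and from accessory subunits that surround them, with the help of assembly factors that are absent from the finished enzyme. The remaining core subunits are encoded by mitochondrial DNA and carry other symbols, so they are not among the members. Neurons depend strongly on this enzyme for ATP, and loss of single subunits causes encephalopathies in humans and mice. CTCF is a zinc-finger protein that binds an asymmetric DNA motif, stops loop extrusion by cohesin and marks many domain boundaries, and it also sits at a large number of promoters.

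Peaks were taken from the deposited between-replicate list, which holds 90278 peaks at an IDR of 0.05. The IDR, or irreproducible discovery rate, is read from how alike a peak ranks in both replicates and is lower for peaks that recur. A gene was called occupied if the summit, the highest point of a peak, lay within 1 kb of any of its transcription start sites (TSSs). The peak signal was computed by the peak caller of the authors on an unstated scale, so levels were compared only within 1 list. A peak is called strong at a signal of 500 or more and weak under 100, limits set after the values were seen. Read depth is unknown from the files used here. A peak list holds no expression values, so the hippocampal label could not be checked against marker genes. In bulk tissue, CTCF bound in fewer cells and CTCF bound more weakly in each cell cannot be told apart.

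Of the 46 complex I genes, 21 were occupied (45.7%, 95% exact interval 30.9 to 61.0%), against 38.0% of all protein-coding genes. The exact (Clopper-Pearson) interval of the complex I share includes the background share. With 46 genes it is wide, so it shows neither a difference from the background nor that the shares are alike. The occupied members held 24 promoter peaks, since Ndufa13, Ndufv3 and Ndufb7 had 2 each. The 46 members lie on 17 chromosomes and the occupied ones on 13, so their peaks do not come from 1 cluster of neighbouring genes. In the thresholded list made from pooled reads the direction turned: 30.4% of complex I genes against 31.2% of all protein-coding genes were occupied.

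Sequences under 12 summits are shown so that the letters behind the motif counts can be read. Their windows were placed by the peaks, so they are not independent of the peak rule. They are 11 of the 13 strong ones, ordered by their match to the motif, and that of the weakest occupied member, Ndufaf5. The CTCF core motif, a pattern of 12 bases, was looked for on either strand, up to 50 bp from the summit. The first 3 runs match it exactly, the next 3 have 1 mismatch, and those of Ndufc1, Ndufb7 and Ndufb10 have 2 mismatches. The last 3 have poorer matches, with 3 mismatches at Ndufab1 and 4 at Ndufaf6 under strong peaks and 5 at Ndufaf5 under a weak peak. The strong summit of Ndufaf3, whose best stretch has 3 mismatches, lies in an untranslated exon part and is not printed. Each run has 36 bases of the RefSeq GRCm38.p6 genome, written 5′ to 3′ on the strand of the match, with the best matching bases in capitals.
Ndufaf4: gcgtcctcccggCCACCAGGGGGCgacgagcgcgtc
Ndufv2: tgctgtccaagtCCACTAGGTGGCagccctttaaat
Ndufv1: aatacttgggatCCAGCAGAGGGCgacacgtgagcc
Ndufa6: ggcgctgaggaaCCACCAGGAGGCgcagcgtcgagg
Ndufa13: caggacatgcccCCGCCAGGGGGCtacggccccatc
Ndufa3: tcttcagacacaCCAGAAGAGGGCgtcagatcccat
Ndufc1: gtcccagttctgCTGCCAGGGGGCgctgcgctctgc
Ndufb7: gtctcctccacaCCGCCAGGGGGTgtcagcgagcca
Ndufb10: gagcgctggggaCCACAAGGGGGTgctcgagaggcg
Ndufab1: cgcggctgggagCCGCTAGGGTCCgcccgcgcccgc
Ndufaf6: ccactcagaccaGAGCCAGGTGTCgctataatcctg
Ndufaf5: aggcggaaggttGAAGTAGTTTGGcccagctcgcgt

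The promoters of the 2 members with the strongest peaks, Ndufc1 and Ndufaf4, are shown whole to place the motif relative to the gene start. They are the RefSeq windows of 250 bases before to 50 after the annotated start on GRCm38.p6, with 300 bases each, and the best match to the core motif is in capitals. The Ndufc1 window is chr3:51408906-51409205 on the minus strand and the Ndufaf4 window is chr4:24897833-24898132 on the plus strand.
Ndufc1 promoter: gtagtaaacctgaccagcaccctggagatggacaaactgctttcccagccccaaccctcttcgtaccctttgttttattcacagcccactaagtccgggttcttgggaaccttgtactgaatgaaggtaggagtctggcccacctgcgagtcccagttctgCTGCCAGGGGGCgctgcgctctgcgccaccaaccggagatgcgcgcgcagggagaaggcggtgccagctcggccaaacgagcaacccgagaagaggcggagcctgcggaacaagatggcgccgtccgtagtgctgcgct
Ndufaf4 promoter: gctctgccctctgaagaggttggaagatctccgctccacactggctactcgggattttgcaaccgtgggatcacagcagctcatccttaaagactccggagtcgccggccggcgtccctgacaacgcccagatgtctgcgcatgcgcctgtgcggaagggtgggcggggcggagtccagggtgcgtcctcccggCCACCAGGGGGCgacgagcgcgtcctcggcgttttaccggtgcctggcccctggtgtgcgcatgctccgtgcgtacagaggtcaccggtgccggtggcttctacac
The capitals run from base 162 to base 173 in the Ndufc1 window, where the CTCF summit falls on base 165. In the Ndufaf4 window they run from base 195 to base 206, and the summit falls on base 212. Both matches lie on the coding strand of the gene, upstream of its start.

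A motif match with at most 1 mismatch was found at 7 of 24 complex I promoter summits (29.2%, 95% exact interval 12.6 to 51.1%), against 20.5% of all 9654 distinct promoter summits of protein-coding genes. Among summits with a signal of 500 or more, the share was 53.8% of 13 complex I summits and 46.2% of 1905 promoter summits. Of the 9 complex I summits with a signal under 100 none had such a match, against 7.76% of 3092 promoter summits. In windows of equal size 1 kb away, 0 of 24 complex I windows and 1.09% of all promoter windows matched. The 7 matching complex I summits were thus all among the 13 strong ones. Of these 7 matches, 6 lay on the coding strand of the gene and that of Ndufa6 on the opposite strand. The same strand share over all matching promoter summits was not computed, so it is unknown whether 6 of 7 is high or low. The centres of the 7 matches lay between 0.5 and 15.5 bp from the summit. A stretch with few mismatches is a description of the letters and does not show that CTCF binds it.

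In the RefSeq promoter windows, which were cut by the gene start and not by a peak, 40 of the 46 members were matched by symbol. Of the 11 matched members with a strong peak, 27.3% held a match with at most 1 mismatch (95% exact interval 6.02 to 61.0%), the windows of Ndufaf4, Ndufa6 and Ndufv1. None of the 22 matched unoccupied members and none of the 7 with weaker peaks held one. Among all 16433 genes with a window, 644 of 6423 occupied genes and 249 of 10010 unoccupied genes held such a match. Of all these genes 5.43% did, and of the 40 matched members 3 did. The 6423 occupied genes include peaks of any signal, and the share among all genes with a strong peak was not computed. The 27.3% therefore has no background of equal signal, and it is unknown whether it is high or low.

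**Figure D1:**
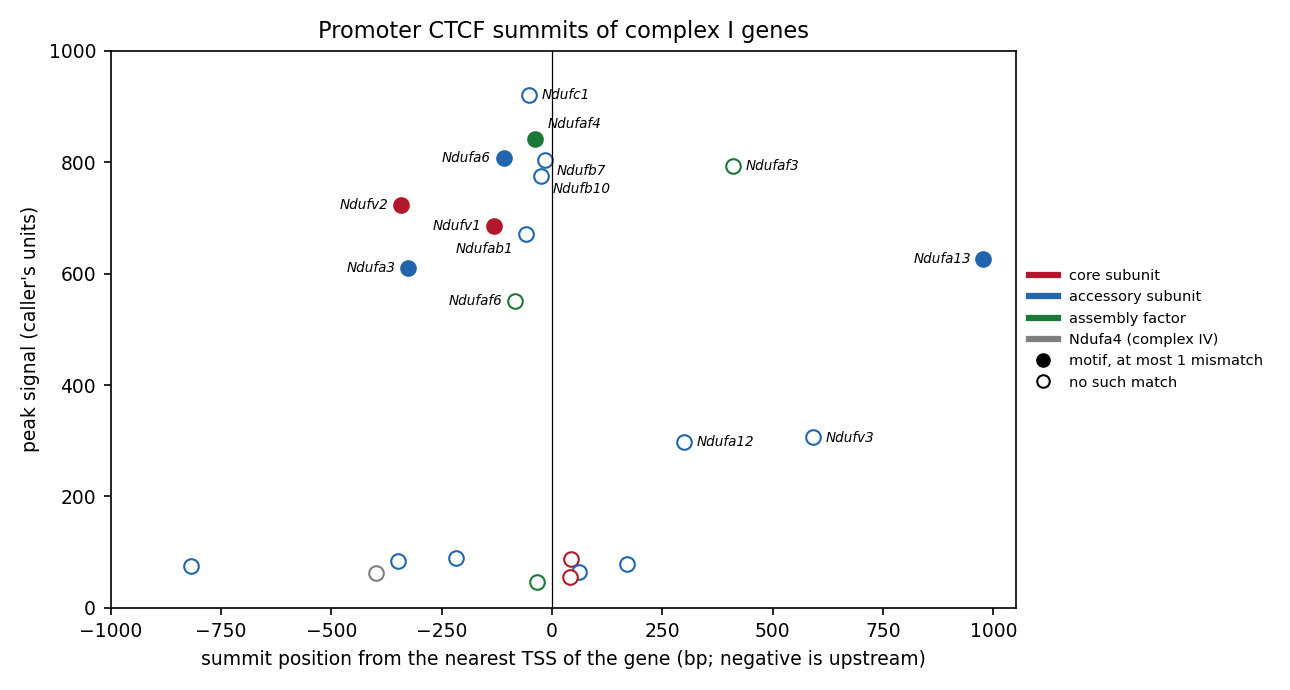
Peak signal (y axis, caller's units) against the position of the summit from the nearest TSS of the gene (x axis, bp, negative upstream) for 23 of the 24 promoter peaks of complex I genes. Colours give the role and filled circles mark a motif match with at most 1 mismatch. Filled circles all lie above 500, and most of the strong summits stand just upstream of the TSS.

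The core subunits were described first, as they carry the redox reactions. Of 7 nuclear-encoded core genes 5 were occupied, and 3 of these had strong peaks. Ndufv1 binds the flavin cofactor that accepts electrons from NADH, and Ndufv2 carries an iron-sulfur cluster next to it. The peak of Ndufv1, chr19:4012679-4013176, had its summit 131 bp upstream and signals of 686 between replicates, 336 in replicate 1 and 352 in replicate 2. The peak of Ndufv2, chr17:66101596-66102116, had its summit 343 bp upstream and signals of 724, 362 and 368 in the same order. Ndufv1 and Ndufv2, core subunits of the NADH-oxidising tip, thus both had strong peaks upstream of their starts, each with an exact match to the motif. The other iron-sulfur protein of that tip, Ndufs1, was unoccupied.

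Ndufs8 and Ndufs7 carry the iron-sulfur clusters that hand electrons to ubiquinone. Ndufs8 had a signal of 88.5, with 44.7 in replicate 1 and 43.0 in replicate 2, and a summit 43 bp downstream of a TSS in an untranslated exon part. Ndufs7 had a signal of 54.7, with 23.3 in replicate 1 and 30.7 in replicate 2, and its summit lay 41 bp downstream. These peaks were weak in both replicates. The IDR score of the Ndufs7 peak, 549, stands just inside the threshold of 540.

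Assembly factors had 4 occupied genes of 8. Ndufaf3 and Ndufaf4 encode partner proteins that act early in building the quinone module. Ndufaf4 had the second strongest peak of all members, chr4:24897782-24898316, with its summit 39 bp upstream and signals of 842 between replicates, 396 in replicate 1 and 448 in replicate 2. Ndufaf3 had a peak at chr9:108566746-108567295 with signals of 793, 390 and 409, and its summit lay 411 bp inside the gene, in an untranslated exon part. The partner genes were thus both high in both replicates, but on different sides of the TSS. The TSS of the noncoding gene 4833445I07Rik lies 510 bp from the Ndufaf3 summit.

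Ndufaf6, another factor needed early in assembly, had a peak at chr4:11076084-11076447 with a summit 85 bp upstream. Its signals of 550 between replicates, 272 in replicate 1 and 279 in replicate 2 were the lowest of the strong group. Ndufaf5, which hydroxylates the NDUFS7 protein in human cells, had the weakest peak of all occupied members, with a signal of 46.7, and 21.4 in replicate 1 and 25.1 in replicate 2. Its summit lay 34 bp upstream of its own TSS and 51 bp from that of Esf1, a head-to-head neighbour. Ndufaf1, Ndufaf2, Ndufaf7 and Ndufaf8 were unoccupied.

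Accessory subunits were occupied in 11 of 29 genes (37.9%), and 7 of these had strong peaks. The strongest peak of any member was at Ndufc1, a small subunit of the membrane arm, at chr3:51408767-51409381. Its summit lay 53 bp upstream and its signal was 920 between replicates, 447 in replicate 1 and 475 in replicate 2. By signal it ranked 43 among all 90278 peaks. It was at percentile 99.9 of occupied protein-coding genes, although its best motif stretch had 2 mismatches.

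Ndufb7 and Ndufb10 encode disulfide-containing membrane-arm subunits that face the intermembrane space. Ndufb7, in the peak chr8:83566417-83566926, had signals of 803 between replicates, 391 in replicate 1 and 418 in replicate 2, with the summit 17 bp upstream. Ndufb10, in the peak chr17:24724246-24724816, had signals of 775, 383 and 395 and a summit 26 bp upstream. Both were strong, close to the TSS and had 2 mismatches in the best motif stretch. Ndufb7 also had a weak peak 818 bp upstream with a signal of 75.5.

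Ndufab1 is the mitochondrial acyl carrier protein, and Ndufa6 is an LYR-motif protein that binds it. Ndufa6 had a peak at chr15:82354206-82354687 with signals of 808 between replicates, 396 in replicate 1 and 412 in replicate 2, and a summit 110 bp upstream. Ndufab1 had a peak at chr7:122101735-122102188 with signals of 671, 333 and 345 and a summit 60 bp upstream. This pair of binding partners thus had strong peaks in both replicates. The other LYR subunit of the complex, Ndufb9, had a weak peak of 64.4, with 30.7 in replicate 1 and 34.0 in replicate 2, and the TSS of Tatdn1 lies 87 bp from its summit.

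Ndufa13, also known as Grim-19, had its strong peak at chr8:69901320-69901812, far inside the gene. The summit lay 977 bp downstream of the TSS in a coding exon, and the signals were 626 between replicates, 323 in replicate 1 and 307 in replicate 2. It is the only strong member peak in which replicate 1 was higher. This summit is close to the 1 kb limit and 603 bp from the TSS of Tssk6, a testis kinase gene, so its assignment to Ndufa13 depends on the distance rule. A second peak, 217 bp upstream of Ndufa13 and 63 bp from the TSS of Yjefn3, had a signal of 88.8, and it is the one that remains at a limit of 500 bp.

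Ndufa3 had a peak at chr7:3616778-3617293, with a summit 326 bp upstream and signals of 610 between replicates, 286 in replicate 1 and 322 in replicate 2. Oscar, a receptor gene of bone-resorbing cells, has its TSS 890 bp from that summit. Between the strong and the weak groups stood only Ndufv3 and Ndufa12, both accessory subunits of the NADH-oxidising arm. The signal was 306 at Ndufv3, with 152 in replicate 1 and 153 in replicate 2, and 298 at Ndufa12, with 133 in replicate 1 and 166 in replicate 2. Both summits lay in introns, 591 and 299 bp downstream of a TSS. Ndufv3 had a second peak of 84.2 at 348 bp upstream.

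Ndufs4, whose loss gives a Leigh-like encephalopathy in mice, had a weak peak with a signal of 79.1, and 37.1 in replicate 1 and 41.1 in replicate 2, at 170 bp downstream. Ndufa4 was described apart, since its protein is now counted with complex IV. It had a signal of 62.5, with 32.1 in replicate 1 and 29.2 in replicate 2, and an IDR score of 787, while its paralog Ndufa4l2 was unoccupied.

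**Figure D2:**
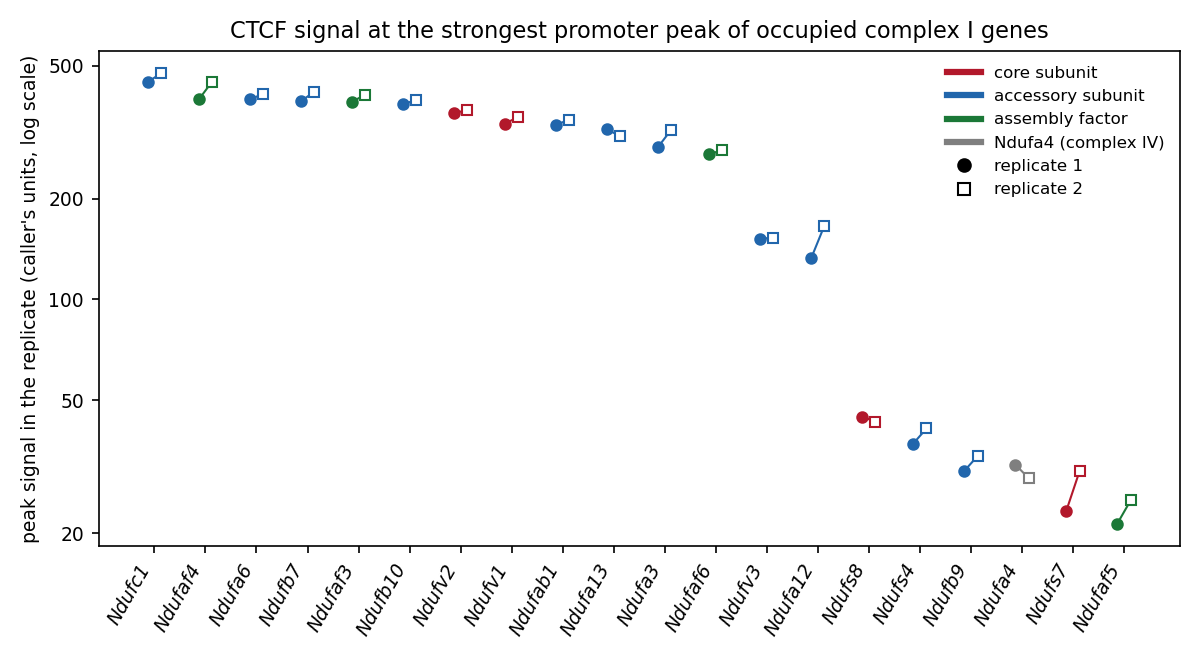
CTCF peak signal in replicate 1 (circles) and replicate 2 (squares) at the strongest promoter peak of 20 of the 21 occupied complex I genes (y axis, caller's units, log scale), coloured by role. The 12 genes on the left, from Ndufc1 to Ndufaf6, lie above 250 in both replicates and the 6 on the right lie under 50 in both.

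The signals of the occupied members fell into a strong and a weak group with little between them. The median over the 21 strongest peaks was 626 (interquartile range 88.5 to 793), against 197 (99.5 to 483) over the 8268 occupied protein-coding genes. A signal of 500 or more was found in 13 of 46 complex I genes (28.3%), against 9.14% of all protein-coding genes. Of the occupied genes alone these were 61.9% of complex I genes against 24.1% of all. With a limit of 300 the shares were 30.4 against 14.3%, and with a limit of 700 they were 17.4 against 4.45%. No test was made of these shares.

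Only 1 occupied member had a signal from 100 to 300 (4.76%), against 37.2% of all occupied genes, and 1 had a signal from 300 to 500, against 13.5%. Signals under 100 were found in 6 of 21 members (28.6%), near the 25.2% of all occupied genes. All 9 weak member peaks were exactly 440 bp wide, as were 85.0% of the 3092 weak promoter peaks of protein-coding genes. The 13 strong peaks were 364 to 615 bp wide, with a median of 516 bp.

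**Figure D3:**
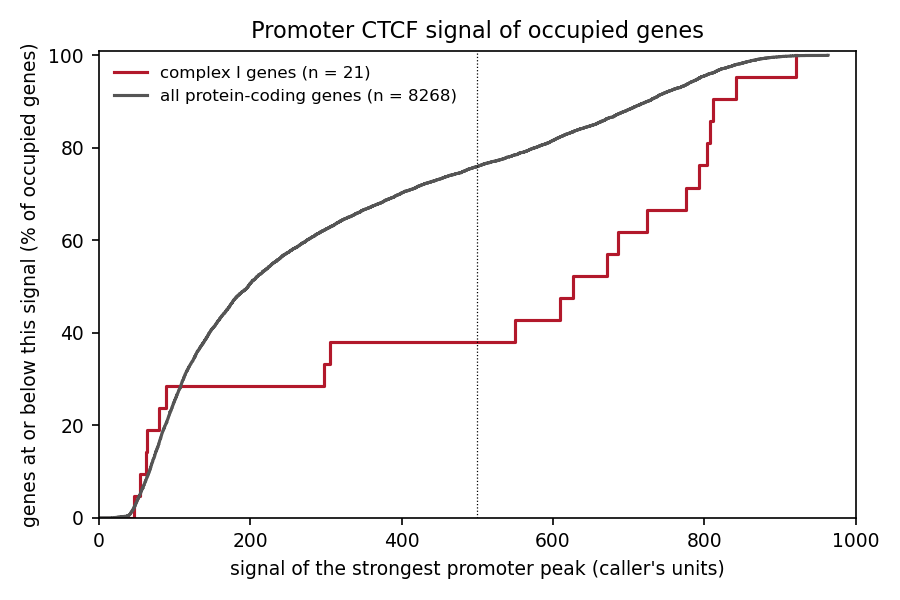
Cumulative share of occupied genes (y axis, %) by the signal of their strongest promoter peak (x axis, caller's units), for 21 complex I genes (red) and all 8268 occupied protein-coding genes (grey). The dotted line marks a signal of 500, above which 61.9% of the complex I genes and 24.1% of all occupied genes lie.

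The summits of complex I genes were close to the gene start. The median distance from the strongest summit to the nearest TSS was 85 bp for complex I genes and 216 bp for all occupied genes. Of the 21 members 11 had the summit within 100 bp (52.4%), against 29.9% of all occupied genes. The summit was upstream in 13 members (61.9%), against 58.3% of all occupied genes. For 17 of the 21 strongest peaks no other protein-coding gene had a TSS within 1 kb of the summit. The 4 exceptions were Ndufa13 with Tssk6, Ndufa3 with Oscar, Ndufb9 with Tatdn1 and Ndufaf5 with Esf1. The same share over all occupied genes was not computed, so it is unknown whether 17 of 21 is high or low.

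Replicates gave like values at the members. The peaks come from a list that keeps those ranked alike in both replicates, so this likeness is partly set by that choice. The log2 ratio of replicate 2 over replicate 1, less its median of 0.09 over all peaks, had a median of -0.02 over the 21 strongest member peaks, a range of -0.23 to 0.30 and an SD of 0.12. Before centring, replicate 2 was higher at 18 of 21 peaks, and at 6677 of all 9654 promoter peaks. Among peaks with a signal of 500 or more it was higher at 12 of 13 member peaks and 1515 of 1905 promoter peaks. A higher replicate 2 was thus general and not a trait of the members. At the 13 strong member peaks the SD was 0.06 and all 13 were within 0.2 of 0, against an SD of 0.09 and 97.3% over all promoter peaks with a signal of 500 or more. At the 9 member peaks under 100 the SD was 0.17, against 0.67 over all 3092 promoter peaks under 100. The latter SD includes extreme peaks, with a range of -5.68 to 5.22. Within 0.2 of 0 were 66.7% of the 9 and 53.4% of the 3092, which is a smaller contrast. The largest differences were at weak members, 0.30 at Ndufs7 and -0.23 at Ndufa4, and at Ndufa12 with 0.23. With 1 value per replicate no test of these ratios was possible.

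The 13 strong peaks were all present, with a summit within 100 bp, in the thresholded lists of replicate 1 alone and replicate 2 alone, where 99.4 and 99.3% of all strong promoter peaks were present. In the pooled-read thresholded list 10 of 13 were present, against 91.1% of strong promoter peaks. Those absent were Ndufc1, Ndufaf4 and Ndufv2. They appear in the pooled-read ranked list with signals of 920, 842 and 724, the same as in the main list, but with IDR scores of 325, 389 and 422, below the threshold of 540. In both single-replicate lists the scores of these 3 peaks were between 990 and 1000. Ndufb9, Ndufa4, Ndufs7 and Ndufaf5, all weak, were also absent from the pooled-read list, which left 14 of 21 members.

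Unoccupied members were 25, namely 2 core subunits, 18 accessory subunits, 4 assembly factors and Ndufa4l2. Their nearest summit lay between 1412 bp (Ndufb6) and 29413 bp (Ndufb11) from a TSS, with a median of 4363 bp. It was within 5 kb in 14 of the 25 and beyond 10 kb in 5. Of the 25 genes 21 had a peak within 1 kb that was ranked but missed the threshold, and the best signal of these ran from 15.4 at Ndufa10 to 60.2 at Ndufs6. Such a peak was found at 84.0% of the unoccupied complex I genes (95% exact interval 63.9 to 95.5%), against 38.2% of the 13487 unoccupied protein-coding genes. The median ratio of observed to expected CpG was 0.730 in the unoccupied complex I genes and 0.343 in all unoccupied genes, and its part in this difference was not tested. Ndufs6 stood just outside the threshold, with an IDR score of 511 and signals of 24.2 in replicate 1 and 33.0 in replicate 2. Ndufa1, Ndufaf2, Ndufb4 and Ndufb8 had no ranked peak within 1 kb.

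For several unoccupied members the nearest summit, beyond 1 kb, was strong. The share of all unoccupied genes with a strong nearest summit was not computed, so it is unknown whether this is common. Ndufa4l2 had a summit with a signal of 902 at 1979 bp upstream, and Ndufaf2, a late assembly factor, had one of 631 at 1541 bp upstream. Ndufaf8, whose human protein is a partner of NDUFAF5, had a summit of 724 at 2309 bp downstream of its TSS. Ndufs1 had a summit of 771 at 4436 bp upstream and Ndufb8 one of 868 at 7286 bp upstream. Weaker summits of 496 and 464 lay 2290 bp upstream of Ndufa5 and 1928 bp upstream of Ndufb3. At a limit of 5 kb, 35 of 46 complex I genes (76.1%) had a summit, against 59.6% of all protein-coding genes.

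CpG content was alike in occupied and unoccupied members. The ratio of observed to expected CpG within 500 bp of the most upstream TSS had a median of 0.707 in occupied and 0.730 in unoccupied complex I genes. A ratio of 0.6 or more, as in CpG islands, was found in 40 of the 46 members (87.0%), against 47.9% of all protein-coding genes. Within that class 18 of 40 complex I genes were occupied (45.0%, 95% exact interval 29.3 to 61.5%), against 56.9% of 10415 protein-coding genes. Strong peaks were found in 27.5% of these 40 and in 12.7% of the 10415. The interval of the occupied share includes that of all CpG-rich promoters. With 40 genes it is wide, so it shows neither a difference nor that the shares are alike. Neither comparison was tested.

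Head-to-head promoters are those in which another protein-coding gene starts on the opposite strand from 0 to 1 kb upstream. They were present at 14 of 46 complex I genes (30.4%), against 8.23% of all 21755 protein-coding genes. Of these 14 complex I genes 2 were occupied (14.3%, 95% exact interval 1.78 to 42.8%). Among all protein-coding genes 1009 of 1790 such genes were occupied (56.4%, 54.0 to 58.7%). The 2 were Ndufaf5 with Esf1 and Ndufb9 with Tatdn1, both weak. None of the 14 had a signal of 500 or more, which allows a share of up to 23.2% by the exact interval, against 9.11% of all head-to-head genes. Without such a partner 19 of 32 complex I genes were occupied (59.4%, 40.6 to 76.3%), against 36.4% of 19965 protein-coding genes, and 40.6% of the 32 against 9.15% had a strong peak. All 13 strong members were therefore genes without a head-to-head coding partner within 1 kb. The strong peak of Ndufa3, however, has the TSS of Oscar, on the opposite strand, 890 bp from its summit. Partner limits wider than 1 kb were not tried, so the count of 13 holds for this limit only. The grouping by head-to-head partner was chosen with the values known and was not tested.

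The 12 unoccupied head-to-head members were Ndufa1 with Rnf113a1, Ndufa2 with Ik, Ndufa5 with Asb15, Ndufa7 with the ribosomal protein gene Rps28, Ndufa8 with Morn5 and Ndufa11 with Vmac. They were also Ndufaf2 with the repair gene Ercc8, Ndufaf7 with Cebpz, Ndufaf8 with Tepsin, Ndufb3 with Fam126b, Ndufb11 with Rbm10 and Ndufs1 with the elongation factor gene Eef1b2. Within 5 kb 71.4% of the 14 had a summit, against 77.8% of the 1790 head-to-head genes among all protein-coding genes, so at this distance the contrast between 14.3 and 56.4% was gone.

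**Figure D4:**
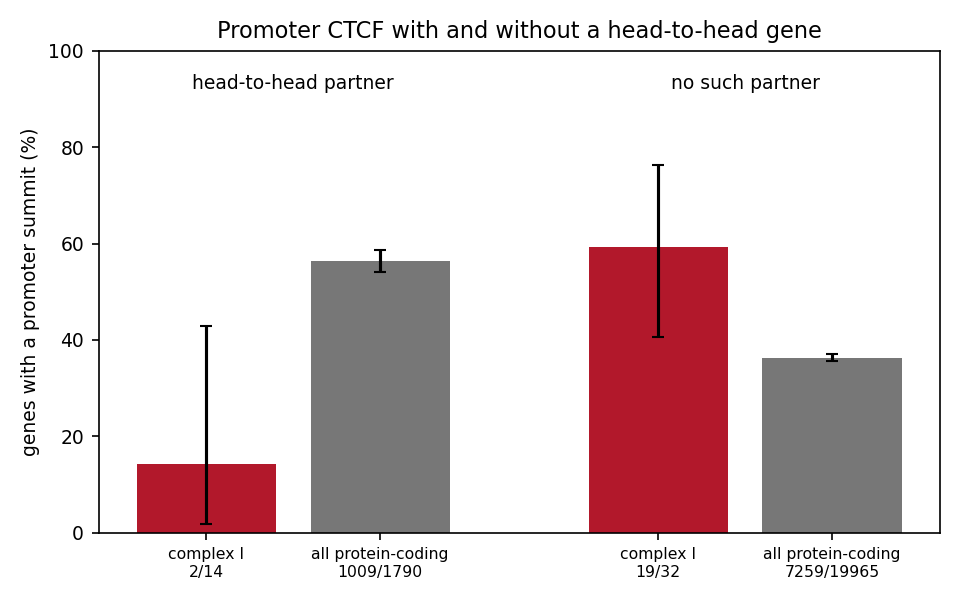
Share of genes with a CTCF summit within 1 kb of a TSS (y axis, %) among genes with and without a head-to-head coding partner, for complex I genes (red) and all protein-coding genes (grey). Bars are shares, error bars are 95% exact intervals, and the counts stand under the bars. Complex I genes with a partner are at 14.3% and those without at 59.4%.

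The other respiratory complexes are given by counts beside complex I. Occupied genes were 4 of 8 in complex II, 12 of 15 in complex III (80.0%), 12 of 27 in complex IV (44.4%) and 12 of 20 in complex V. Of the complex I assembly factors that do not carry an Nduf symbol 4 of 9 were occupied, Dmac1, Nubpl, Timmdc1 and Tmem186, with a median signal of 138 and none at 500 or more. The median signal of occupied genes was 626 in complex I, against 263 in complex II, 246 in complex III, 117 in complex IV and 255 in complex V. The complex I median is the Ndufa13 peak, and it was 610 at a limit of 500 bp. Strong peaks were found in 12.5% of complex II, 20.0% of complex III, 11.1% of complex IV and 20.0% of complex V genes. The median was 330 in occupied cytosolic ribosomal protein genes and 201 in occupied proteasome genes. Cytosolic ribosomal protein genes were occupied in 54 of 83 (65.1%) and had a strong peak in 25.3%. Proteasome genes were occupied in 23 of 45 (51.1%) and had a strong peak in 13.3%. The complex I share with a strong peak, 28.3%, was close to that of the ribosomal protein genes and its occupied share was lower, without a test of either.

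**Figure D5:**
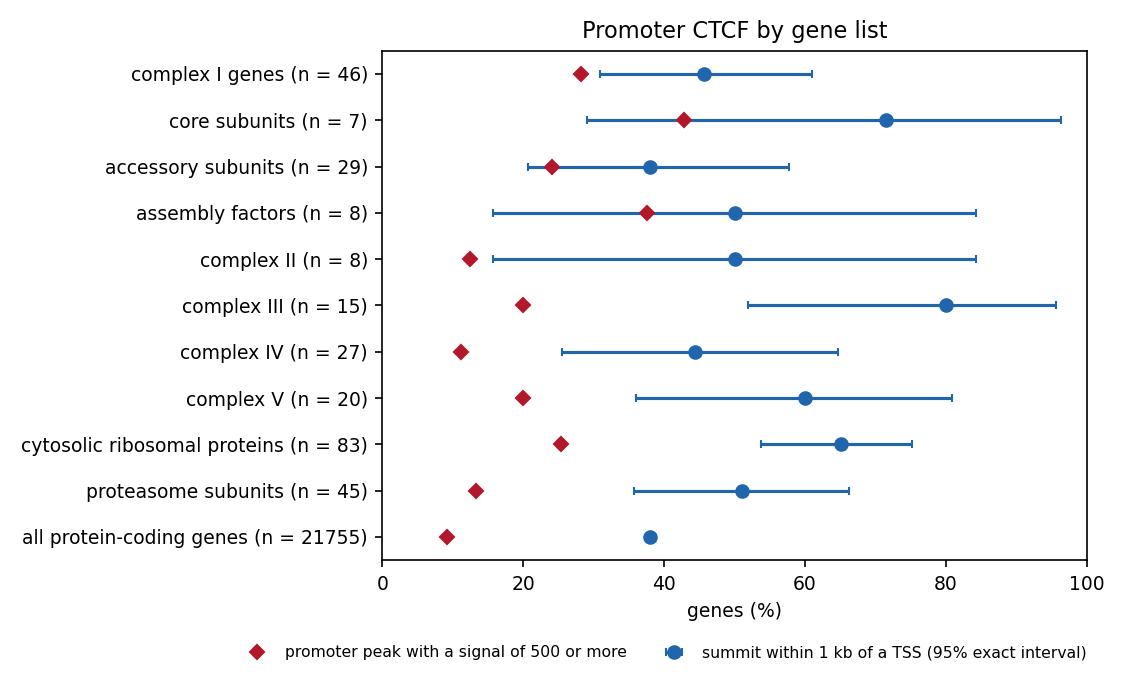
Share of genes (x axis, %) with a CTCF summit within 1 kb of a TSS (blue circles, with 95% exact intervals) and with a promoter peak signal of 500 or more (red diamonds) in complex I genes by role, in other gene lists and in all protein-coding genes. The complex I interval from 30.9 to 61.0% includes the 38.0% of all protein-coding genes, and its diamond stands at 28.3% against 9.14% for all genes.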

How the data were processed

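CTCF ChIP-seq of hippocampal tissue in 4 libraries, grouped by the labels into 2 biological replicates, was used. Peaks on mm10 were called by the authors per replicate, between replicates and on pooled reads, per the sample notes deposited with the series. No source used here names the aligner or the peak caller or says how a control was used. The deposited peak signal has no stated scale, and the deposited IDR score is 540 at an IDR of 0.05 and 830 at 0.01. Replicate signals come from the between-replicate ranked list: 78.1% of its first input peaks were found in the replicate 1 list and 80.0% of its second in that of replicate 2, with none crossed.

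The basic GENCODE M21 annotation gave the TSSs, and sequence came from RefSeq GRCm38.p6. Coordinates are 1-based. Shares have exact (Clopper-Pearson) intervals at 95%, which cover counting of genes only. Among equal motif matches the one nearest the summit was shown. Members are given by name, the strongest with full values and the others by signal and distance. The values of 1 member are not reported here singly and enter only counts and summaries. The members, lists, limits and groupings were chosen with earlier results of these data known. No set test was made. Distance and motif code was tested on simulated data. Alternatives were other distances, IDR limits, peak lists, TSS sets, mismatch limits and centrings. Tools were pysam 0.24.0, scipy 1.17.1, pandas 2.3.3, numpy 2.4.6 and matplotlib 3.10.9 under Python 3.11.15.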

Additional observations from a re-analysis of the deposited data

How the results depend on the processing

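The share of occupied complex I genes, 45.7%, came from the same 21 genes within 500 bp, with the most upstream TSS alone, with coding transcripts alone and with any base of the peak. It was 76.1% within 5 kb and 30.4% in the pooled-read list, and 37.0 to 39.1% in the lists of 1 replicate, which leave out the other. Over all protein-coding genes the share of 38.0% became 30.3% within 500 bp, 59.6% within 5 kb, 34.7% at an IDR of 0.01, 31.2% in the pooled-read list, 33.7 to 34.0% with 1 replicate left out, 35.1% with the most upstream TSS, 40.0% with any base of the peak and 43.9% with the comprehensive annotation. At an IDR of 0.01 Ndufa4, Ndufaf5 and Ndufs7 were lost, replicate 1 alone also lost Ndufs4, and the comprehensive annotation added Ndufb2. The comprehensive annotation, the limits on strong peaks and all alternatives for head-to-head genes were chosen after seeing the data. The share of strong complex I genes, 28.3%, ran from 17.4 to 30.4% over these limits, 500 bp and the pooled-read list. At 500 bp and in the pooled-read list the share of all protein-coding genes with a strong peak was not computed. The occupied share of head-to-head complex I genes was 14.3% with partners within 500 bp and 7.14% in each single-replicate list. For these settings the share of all head-to-head genes was not computed. Within 5 kb the shares were 71.4% of head-to-head complex I genes and 77.8% of all head-to-head genes. Complex I summits with a motif match were 29.2%, and 58.3% with 2 mismatches allowed, against 49.2% of all promoter summits, and 16.7% with none allowed, against 3.68%. No paired analysis was possible because no result comes from a test between groups. Read depth is unknown, so no limit from it could be computed.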
